A study of Chlamydomonas reinhardtii with 28 samples.

Results

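H3K9me3 peaks lost in dnmt1 are places where wild-type Chlamydomonas reinhardtii carried a called peak of histone H3 trimethylated at lysine 9 and cells without DNMT1 did not. A peak of WT mt+ or WT mt− was counted as lost when no H3K9me3 peak of dnmt1 mt+ or of dnmt1 mt− touched it by 1 bp or more. Such peaks numbered 254 of 12026 in WT mt+ (2.11%, Wilson 95% interval 1.87 to 2.38) and 400 of 12430 in WT mt− (3.22%, 2.92 to 3.54). The word lost describes peak lists, and the peaks were selected on the H3K9me3 calls of the 4 lists. Their H3K9me3 widths, folds and numbers are therefore given as a description, with no test. The calls of the other marks did not enter the choice, but those marks are not all independent of it. H3K4me1 and H3K4me3 share an input with H3K9me3 according to the labels, and nearly all H3K9me3 peaks lay on H3K4me3 peaks. The other marks too were measured in 1 library per genotype and strain, so no p-value is given.

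DNMT1 is a maintenance DNA methyltransferase, which copies cytosine methylation onto the new strand after replication. H3K9me3 is best known from the silent heterochromatin of animals and fungi, and H3K4me3 marks the start regions of transcribed genes in most eukaryotes. In Chlamydomonas the mark most often tied to silencing is monomethylation of lysine 9, H3K9me1, for which the SET-domain protein SET3 is needed at silenced loci. The H3K9me3 peaks of these lists were narrow and lay almost all on H3K4me3 peaks, unlike the broad domains known from animals.

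The mutant cells were dnmt1, labelled as a DNMT1 knockout, in the strains CC-5155 (mating type plus, mt+) and CC-5325 (mating type minus, mt−), and WT cells of these strains were the controls. A set3 knockout of both strains was profiled for H3K9me1 alone. All cells were vegetative, were grown in TAP medium and were fixed with formaldehyde, with the origin of the mutant lines not given in the sources used here. Peak lists come from 18 ChIP libraries, and 10 inputs complete the 28 samples. H3K4me1, H3K4me3 and H3K9me3 share an input according to the labels, so a fault of that input would touch all of them, and its part in the results was not tested.

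The H3K9me3 lists held 12211 peaks in dnmt1 mt+, 12467 in dnmt1 mt−, 12026 in WT mt+ and 12430 in WT mt−. Folds and q-values are the authors' own. The fold of a peak is the ratio of the fragments stacked at its summit to the local background. The lowest −log10 q was 2.00 and 2.01 in the dnmt1 lists, and 2.04 and 2.02 in the WT lists. The background recovered at the bottom of each list was a scaled pileup of 25.9 in dnmt1 mt+, 23.9 in dnmt1 mt−, 20.03 in WT mt+ and 25.4 in WT mt−. At the median background of its list, a summit needed a fold of 1.60 in dnmt1 mt+ and 1.59 in dnmt1 mt−, against 1.65 in WT mt+ and 1.59 in WT mt−, to be called. That median background was 31.5 in dnmt1 mt+ and 25.0 in WT mt+. At the background of the bottom of the list, the fold needed was 1.64 in dnmt1 mt+ and 1.76 in WT mt+. As a ratio, the mt+ lists thus differed more in background than in the fold needed at both points. Intervals below cover counting error over peaks only, which they treat as independent. Variation between libraries is not in them, and neither is the fact that reads amplified by PCR are not independent molecules.

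The number lost depended on which mutant lists were asked. In WT mt+, 611 peaks (5.08%) were missing from the dnmt1 list of the same strain, and 539 (4.48%) from that of the other strain. In WT mt−, 740 peaks (5.95%) were missing from the dnmt1 list of the same strain and 847 (6.81%) from that of the other. Hence 357 peaks of WT mt+ and 340 of WT mt− missing from their own dnmt1 list were found in the other. Peaks ran the other way as well: 481 of 12211 dnmt1 mt+ peaks (3.94%) and 591 of 12467 dnmt1 mt− peaks (4.74%) met no peak of either WT list. Peaks found in a single list of the 4 numbered 195 in dnmt1 mt+ (1.60%), 333 in dnmt1 mt− (2.67%), 128 in WT mt+ (1.06%) and 276 in WT mt− (2.22%). Lists of the same genotype thus also differed from each other in peaks of their own.

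The lost peaks were among the narrowest of their lists. Their median width was 297.5 bp in WT mt+ (288 to 310), against 629 bp over all WT mt+ peaks, and 324 bp in WT mt− (314 to 334), against 656 bp. In WT mt+ the lost widths ran over 246 to 926 bp and in WT mt− over 256 to 863 bp, while the widest peaks of the 2 lists reached 4202 and 4181 bp. Of the lost peaks, 245 in mt+ (96.5%) and 379 in mt− (94.75%) belonged to the narrowest 25% of their list. The lost peaks covered 80.5 kb in mt+ and 137.8 kb in mt−, which was 0.969% and 1.55% of the length of all H3K9me3 peaks.

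Many lay at the shortest width the list held. The shortest peak measured 256 bp in dnmt1 mt+, 265 bp in dnmt1 mt−, 246 bp in WT mt+ and 256 bp in WT mt−. In WT mt+, 126 lost peaks (49.6%, 43.5 to 55.7) were within 50 bp of the shortest width of their list, against 4.5% of all its peaks. In WT mt− it was 164 (41.0%, 36.3 to 45.9), against 4.08% of all peaks. The shortest width differed between the lists, so 51 lost mt+ peaks (20.1%, against 1.6% of all) and 48 lost mt− peaks (12%, against 0.917% of all) were narrower than any peak of dnmt1 mt−. The plot of widths shows the lost peaks crowded at the lower limit, with a short tail.

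**Figure D1:**
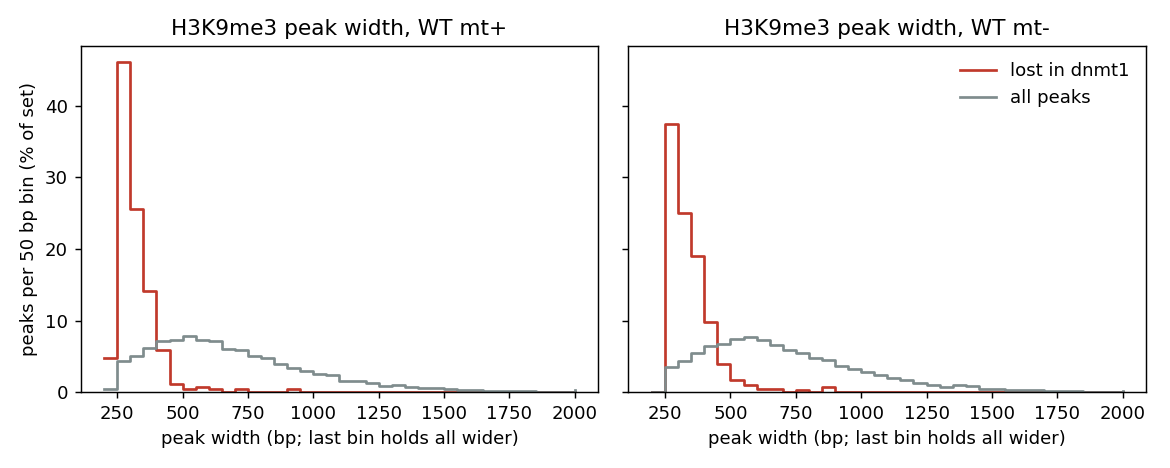
Width of H3K9me3 peaks lost in dnmt1 (red) and of all H3K9me3 peaks (grey), for WT mt+ (left) and WT mt− (right). The horizontal axis is peak width in bp and the vertical axis is the percentage of each set per 50 bp bin. The lost peaks sit near the shortest width of each list, with medians of 297.5 and 324 bp, against 629 and 656 bp for all peaks.

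They were also weak. The median fold of lost peaks was 2.30 in WT mt+ (2.23 to 2.35), against 3.73 over all its peaks, and 2.15 in WT mt− (2.12 to 2.18), against 3.59. The highest fold of a lost peak was 3.85 in mt+ and 3.78 in mt−, and 15 and 13 lost peaks had a fold of 3 or more. The median pileup at the summit was 55.9 for lost peaks and 98.3 for all peaks in mt+, and 65.1 and 116.9 in mt−. The local background differed far less, at 23.0 for lost peaks and 25.0 for all peaks in mt+, and at 28.7 and 31.0 in mt−. The median −log10 q of lost peaks in WT was 6.79 in mt+ and 6.81 in mt−, against 25.7 and 29.1 over all peaks. A −log10 q of 5 or more was held by 190 of the 254 and by 322 of the 400. These are WT values, which do not give the signal in dnmt1, and whether a calling limit made the loss was not tested.

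The share of WT peaks lost fell with width and with fold. In WT mt+, 129 of 577 peaks under 300 bp were lost (22.4%, 19.1 to 25.9), 101 of 1352 of 300 to 400 bp (7.47%), 18 of 1753 of 400 to 500 bp (1.03%), 4 of 3409 of 500 to 700 bp (0.117%) and 2 of 4935 wider ones (0.0405%). In WT mt− the same bins lost 150 of 439 (34.2%, 29.9 to 38.7), 176 of 1233 (14.3%), 55 of 1646 (3.34%), 15 of 3605 (0.416%) and 4 of 5507 (0.0726%). Even among the narrowest peaks, most were thus called again in at least 1 dnmt1 list. Of peaks with a fold under 2, 38 of 305 were lost in mt+ (12.5%) and 102 of 460 in mt− (22.2%). No peak with a fold of 4 or more was lost, among 5229 in mt+ and 4874 in mt−, for which the upper Wilson limits are 0.0734% and 0.0788%.

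**Figure D2:**
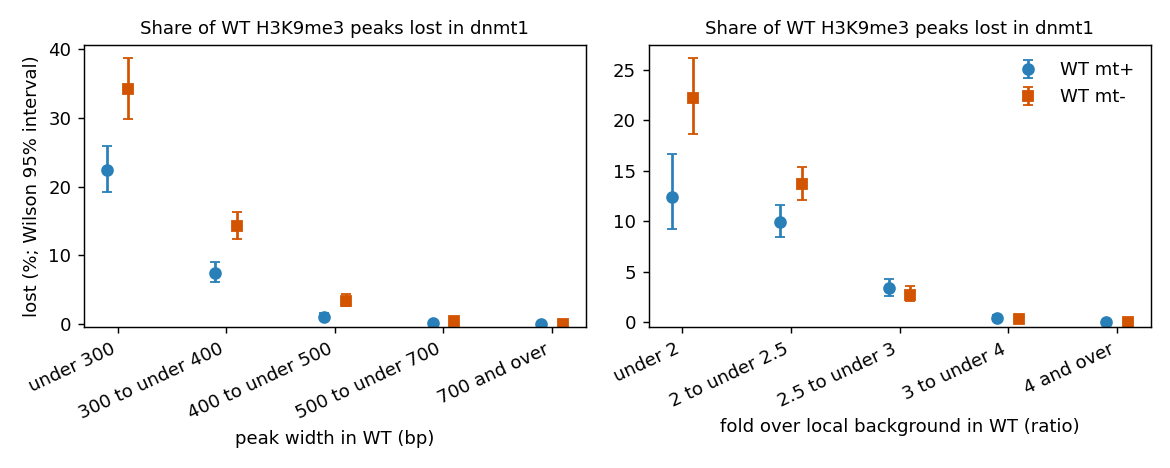
Share of WT H3K9me3 peaks lost in dnmt1, in percent, by peak width in bp (left) and by fold over the local background (right), for WT mt+ (blue circles) and WT mt− (orange squares); bars are Wilson 95% intervals. The share is highest for peaks under 300 bp, at 22.4% for WT mt+ and 34.2% for WT mt−, and is 0 for folds of 4 and over.

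The rule cuts at a single shared base pair, and few peaks lay close to it. Lost peaks with a dnmt1 H3K9me3 peak within 200 bp numbered 8 in WT mt+ and 6 in WT mt−. The nearest in mt+ were on chromosome 13 from 4893971 to 4894896, with a gap of 8 bp, on chromosome 1 from 3659478 to 3659728, with 32 bp, and on chromosome 16 from 4099144 to 4099389, with 106 bp. In mt− they were on chromosome 13 from 4894008 to 4894633, with 45 bp, on chromosome 15 from 3352855 to 3353187, with 88 bp, and on chromosome 11 from 594657 to 594930, with 132 bp. The chromosome 13 peaks of the 2 strains are the same place, and that region comes back below. Just inside the rule, the peaks kept by the fewest base pairs shared 69, 106 and 107 bp with dnmt1 peaks in mt+, and 41, 111 and 124 bp in mt−. Peaks counted as kept with less than 50% of their length covered numbered 12 in mt+ and 30 in mt−. The median gap to the nearest dnmt1 H3K9me3 peak was 3014.5 bp in mt+ and 3064.5 bp in mt−, and 91 (35.8%) and 131 (32.75%) lost peaks had none within 5 kb, against 0.757% and 1.05% of all peaks. These shares of all peaks are the same lost peaks over the whole list, because a kept peak has no gap by the rule.

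Lost peaks were spread over the genome. All 17 chromosomes held some in each strain. The share of peaks lost ran over 0.895% on chromosome 11 to 3.36% on chromosome 5 in WT mt+, with a median of 2.16%, and over 2.00% on chromosome 11 to 4.78% on chromosome 8 in WT mt−, with a median of 3.22%. Chromosome 11 was lowest in both strains, where its intervals overlap those of most other chromosomes. Neighbouring peaks of a list that were both lost made up 12 pairs in mt+ and 23 in mt−. Of all peaks, 2.11% in mt+ and 3.22% in mt− were lost, so most neighbours of a lost peak are kept in any case. Whether lost peaks cluster was not tested.

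**Figure D3:**
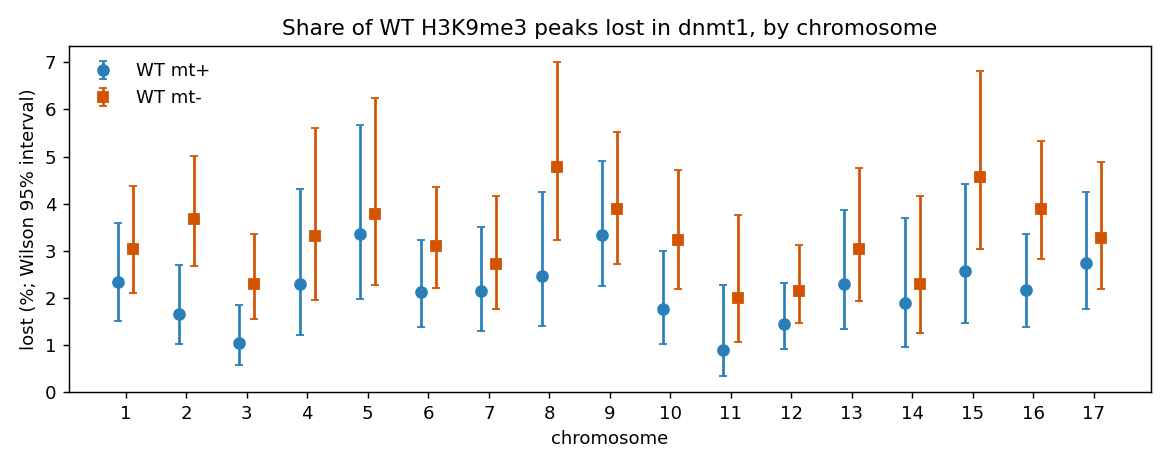
Share of WT H3K9me3 peaks lost in dnmt1, in percent, on each of the 17 chromosomes, for WT mt+ (blue circles) and WT mt− (orange squares); bars are Wilson 95% intervals. Every chromosome holds lost peaks in both strains, the lowest share is on chromosome 11, and most intervals overlap.

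Chromosome interiors held 241 of the 254 lost mt+ peaks (94.9%, against 98.1% of all) and 382 of the 400 lost mt− peaks (95.5%, against 98.3%). Chromosome ends, here the outermost 50 kb, held 5 (1.97%, 0.844 to 4.52, against 1.1% of all) and 8 (2.00%, 1.02 to 3.90, against 0.933%). Unplaced contigs held 5 (1.97%, 0.844 to 4.52, against 0.682%) and 10 (2.5%, 1.36 to 4.54, against 0.74%). The intervals for the ends take in the value over all peaks in mt+ and lie above it in mt−, and those for contigs lie above it in both strains, with few peaks behind them. On contigs, 4 places were lost in both strains, so the strains do not give separate support there.

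The region that decides mating type was examined as well, since the series title concerns recombination there. Of the 18 WT mt+ peaks on the sequence named mating_type_plus, 3 were lost (16.7%, 5.84 to 39.2), and none of the 4 WT mt− peaks on it. That is 1.18% of all lost mt+ peaks and 0% of all lost mt− peaks, while the sequence held 0.15% of all WT mt+ peaks and 0.0322% of all WT mt− peaks. These shares are not like for like, because dnmt1 mt− had 4 H3K9me3 peaks on the sequence, and absence there rested mainly on the dnmt1 mt+ list. From the dnmt1 mt+ list alone the same number, 3 of 18, was missing, against 5.08% of all WT mt+ peaks, a value below the interval. The lost ones, named after their values were seen, ran from 158450 to 158790, from 159915 to 160188 and from 273553 to 273827, with folds of 2.00, 2.31 and 2.29 and widths of 341, 274 and 275 bp. All 3 stood on an H3K4me3 peak in both dnmt1 mt+ and WT mt+. In total dnmt1 mt+ had 15 H3K9me3 peaks on that sequence, against 18 in WT mt+. In the first 1 Mb of chromosome 6, lost peaks numbered 2 of 93 in mt+ and 4 of 107 in mt−, that is 0.787% and 1.00% of all lost peaks, against 0.773% and 0.861% of all peaks.

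Some losses were common to both strains. There were 123 places where a lost peak of WT mt+ overlapped a lost peak of WT mt−, each with a single partner, which is 48.4% of the lost mt+ peaks (42.3 to 54.5) and 30.75% of the lost mt− peaks (26.4 to 35.4). Of all WT peaks, 1.03% in mt+ and 1.01% in mt− overlapped a lost peak of the other strain. The rule largely fixes these values and nothing is read from them, since a WT peak over a lost peak of the other strain can be kept only through a part outside the overlap. Of the other lost peaks, 128 of WT mt+ and 276 of WT mt− met no WT H3K9me3 peak of the other strain, and 3 and 1 met a kept peak alone, which the rule leaves possible only at an edge. Over all peaks, 96.7% of WT mt+ and 93.3% of WT mt− met a WT peak of the other strain. Seen from the other side, peaks without a partner in the other WT strain were lost in 128 of 397 cases in mt+ (32.2%) and in 276 of 832 in mt− (33.2%), whereas peaks with a partner were lost in 1.08% and 1.07% of cases.

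In the 123 shared places, the peaks overlapped by a median of 271 bp and their summits lay a median of 38 bp apart (quartiles 14 and 75). They lay on all 17 chromosomes, with 117 in interiors, 2 at ends and 4 on contigs. The peaks were a little wider than those unique to a strain, with medians of 304 and 292 bp in mt+ and of 338 and 318 bp in mt−. Median folds were 2.37 for shared and 2.24 for unshared lost peaks in mt+, and 2.25 and 2.12 in mt−. Only 4 shared places reached a fold of 3 in both strains.

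The highest of these was on chromosome 12, where it spanned 9450983 to 9451339 in WT mt+, and 9450958 to 9451344 in WT mt−. Its fold was 3.85 in mt+ and 3.78 in mt−, and 52.7% and 55.3% of the peaks of the lists were as low or lower. No H3K9me3 peak of either dnmt1 list lay nearer than 14136 bp. H3K4me3 was nonetheless high there, with a fold of 7.03 in dnmt1 mt+ against 6.91 in WT mt+, and of 5.98 in dnmt1 mt− against 5.01 in WT mt−. These H3K4me3 folds were at the 97.1 percentile of the dnmt1 mt+ list and at the 99.6 percentile of the dnmt1 mt− list.

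The second highest by its mt+ fold lay on chromosome 17 from 1445206 to 1445577, with H3K9me3 folds of 3.30 in mt+ and 2.78 in mt−. Its H3K4me3 peak had a fold of 5.56 in dnmt1 mt+ against 5.73 in WT mt+, and of 2.81 in dnmt1 mt− against 4.44 in WT mt−. The third, on chromosome 2 from 6368475 to 6368755, had H3K9me3 folds of 3.26 and 3.00 on an H3K4me3 peak 264 bp wide in both WT strains. In dnmt1 that H3K4me3 peak measured 283 bp in mt+ and 259 bp in mt−. On contig 20, a peak from 70908 to 71228 had folds of 3.20 in mt+ and 3.73 in mt−, with the nearest dnmt1 H3K9me3 peak 34202 bp away, the longest gap among lost peaks on sequences with a dnmt1 H3K9me3 peak. Only 2 lost peaks, both of mt− and on contigs 31 and 55, had none on their sequence. At the contig 20 place the H3K4me3 fold was 4.81 in dnmt1 mt+ against 5.12 in WT mt+, and 3.48 in dnmt1 mt− against 4.50 in WT mt−. On contig 38, a peak from 942 to 1302 had folds of 3.16 and 2.32.

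The next 5 by mt+ fold lay on chromosomes 4 (2771008 to 2771360), 15 (1658252 to 1658603), 2 (5993799 to 5994067), 8 (2282701 to 2283147) and 1 (2716010 to 2716269). Their H3K9me3 folds spanned 2.98 to 3.13 in WT mt+ and 2.54 to 3.03 in WT mt−. All 10 places named here kept an H3K4me3 peak in dnmt1 of both strains. The plot of shared folds shows how the strains scatter around these values.

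**Figure D4:**
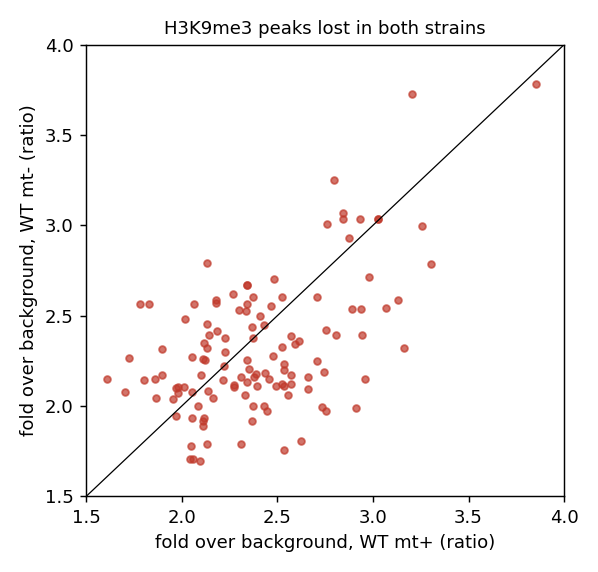
Fold over the local background of the 123 H3K9me3 peaks lost in both strains, in WT mt+ (horizontal axis) and WT mt− (vertical axis); each point is a place and the line marks equal folds. Most places lie between 1.6 and 3 on both axes, and the place on chromosome 12 stands apart at 3.85 and 3.78.

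Among peaks that were lost but not shared, the highest folds were on chromosome 6 from 2377110 to 2377719 in mt+ (3.30, 610 bp wide) and on chromosome 6 from 1236843 to 1237188 in mt− (3.32, 346 bp wide). On chromosome 16, a lost mt+ peak from 7900767 to 7901038 had a fold of 3.26. On chromosome 15, a lost mt− peak from 1408366 to 1408621 had a fold of 3.18. The WT list of the other strain held no H3K9me3 peak at any of these places, so the lists gave 1 strain's WT library alone for each. A shared place on chromosome 9, from 2917690 to 2918057 in mt−, completes the 5 highest folds of that strain, at 3.25.

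The widest lost peak of mt+, 926 bp, is the chromosome 13 peak that begins at 4893971 (fold 2.53). It was followed by a 702 bp peak on chromosome 13 from 1045588 to 1046289 (1.83) and the 610 bp peak of chromosome 6. Peaks of 569 bp on chromosome 2 from 1181096 to 1181664 (2.66) and of 552 bp on chromosome 3 from 8285493 to 8286044 (2.34) came next. In mt− the 3 widest measured 863 bp (chromosome 3, 5130994 to 5131856, fold 2.16), 860 bp (chromosome 3, 7626438 to 7627297, 2.41) and 853 bp (chromosome 5, 3654471 to 3655323, 1.99). A 788 bp peak on chromosome 3 from 8285335 to 8286122 (2.67) overlaps the lost chromosome 3 peak of mt+, and a 680 bp peak lay on chromosome 13 from 2647286 to 2647965 (2.07). The 853 bp peak, in the last 50 kb of chromosome 5, was also lost in mt+, where it spanned 3654486 to 3654812.

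An H3K4me3 peak was called in dnmt1 at nearly all lost peaks. The overlaps tell of calls alone, and the H3K4me3 folds at these places are given further below. In mt+, 246 of 254 (96.9%, 93.9 to 98.4) were overlapped by an H3K4me3 peak of dnmt1 mt+, against 99.6% of all WT mt+ H3K9me3 peaks. In WT mt+ itself it was 245 (96.5%, 93.4 to 98.1), against 99.6%. The 246 include 3 lost peaks with no H3K4me3 peak in WT mt+. In mt−, 391 of 400 (97.75%, 95.8 to 98.8) were overlapped by an H3K4me3 peak of dnmt1 mt−, against 99.7%, and 396 (99.0%, 97.5 to 99.6) by one of WT mt−, against 99.7%. Lost peaks thus stood off H3K4me3 a little more often than all peaks did, while most were on it in both genotypes.

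Of the lost peaks on a WT H3K4me3 peak, 2 of 245 in mt+ (0.816%, 0.224 to 2.93) and, for mt−, 5 of 396 (1.26%, 0.540 to 2.92) had no dnmt1 H3K4me3 peak of the strain over them, against 0.0418% and 0.0887% of all H3K9me3 peaks. The whole WT H3K4me3 peak lacked a counterpart in dnmt1 for 2 of the 245 (against 0.0418% of all) and for 3 of the 396 (0.758%, 0.258 to 2.203, against 0.0726%). For the other 2 mt− peaks, dnmt1 H3K4me3 covered only another stretch of the WT H3K4me3 peak. For comparison, 0.177% of all WT H3K4me3 peaks were missing from dnmt1 in mt+ and 1.85% in mt−. H3K4me3 peaks of WT that held a lost H3K9me3 peak and no kept one retained their H3K4me3 in 233 of 235 cases in mt+ and 367 of 369 in mt−. Those without any H3K9me3 peak kept it in 3491 of 3513 cases in mt+ (99.4%) and in 3075 of 3351 in mt− (91.8%).

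A lost peak was usually the only H3K9me3 peak on its H3K4me3 peak. In WT mt+, 235 of 245 were alone and 10 (4.08%, 2.23 to 7.35, against 4.1% of all) had 1 other H3K9me3 peak beside them, in all 10 cases a kept one. In WT mt−, 368 of 396 were alone and 28 (7.07%, 4.94 to 10.03, against 5.21%) had company. Of the 28, 25 had 1 other peak, 2 had 2 others and 1 had 5. That last peak, named after its values were seen, lay on chromosome 15 from 2765899 to 2766346, inside an H3K4me3 peak 6039 bp wide. The share with company was near that of all peaks in mt+, and the mt− interval takes in the value over all peaks. In mt+ the share was higher when a single dnmt1 list was asked. Of peaks missing from the dnmt1 list of the same strain, 7.06% had company (5.24 to 9.43). Of those missing from the list of the other strain, it was 6.29% (4.51 to 8.70). Both intervals lie above the value over all peaks, while both shares lie within the interval of the 4.08% reported.

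In dnmt1 most of these H3K4me3 peaks held no H3K9me3 peak anywhere along them. A dnmt1 H3K4me3 peak over a lost place held a dnmt1 H3K9me3 peak in 11 of 246 cases in mt+ (4.47%) and in 16 of 391 in mt− (4.09%), against 95.4% and 94.5% over all H3K9me3 peaks. By the rule no dnmt1 H3K9me3 peak touches the place itself, so these 11 and 16 had theirs elsewhere on the same H3K4me3 peak. A kept peak meets a dnmt1 H3K9me3 peak by the same rule. The rule thus largely fixes the gap to all peaks, and nothing is read from it.

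Summits of lost peaks lay close to those of their H3K4me3 peaks. The H3K9me3 summit was within 100 bp of the WT H3K4me3 summit for 201 of 245 in mt+ (82.0%, 76.8 to 86.3, against 72.6% of all) and for 295 of 396 in mt− (74.5%, 69.98 to 78.5, against 70.7%), where the mt− interval takes in the value over all peaks. The median distance was 46 bp for lost peaks and 56 bp for all peaks in mt+, and 55 and 59 bp in mt−. Lost peaks wholly inside a WT H3K4me3 peak numbered 229 of the 245 (93.5%, against 91.4%) and 368 of the 396 (92.9%, against 90.6%). Lost peaks and their H3K4me3 peaks were also narrower than those over all peaks, which limits how far apart summits can lie. These values were not adjusted for width, so no trait of position is read from them.

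The H3K4me3 peaks that carried lost H3K9me3 were narrower than those under H3K9me3 peaks as a whole. In dnmt1 mt+ they had a median width of 616.5 bp at lost places and 928 bp at all places, and in WT mt+ 583 bp at lost places and 888 bp at all. In dnmt1 mt− the medians were 582 bp at lost places and 881 bp at all, and in WT mt− 642 and 919 bp. WT H3K4me3 peaks with no H3K9me3 peak were narrower again, with medians of 510 bp in mt+ and 517 bp in mt−. Lost places thus lay between H3K4me3 peaks that kept H3K9me3, at 886 bp in mt+ and 916 bp in mt−, and those that had none.

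The H3K4me3 fold at lost places ranked lower in the dnmt1 lists than that at all places did. Its median percentile within the dnmt1 mt+ list was 29.1 at lost places (25.7 to 34.6) and 59.4 at all places, and within the WT mt+ list 42.4 (36.96 to 47.04) and 59.9. Within the dnmt1 mt− list it was 33.7 (29.3 to 36.8) at lost places and 58.0 at all, and within the WT mt− list 53.4 (46.3 to 59.0) and 57.3. The folds themselves had medians of 4.66 at lost and 5.57 at all places in dnmt1 mt+, and of 5.03 and 5.56 in WT mt+. In dnmt1 mt− they were 3.84 at lost and 4.37 at all places, and in WT mt− 4.00 and 4.06. The H3K4me3 lists held 15674 peaks in dnmt1 mt+, 15540 in dnmt1 mt−, 15256 in WT mt+ and 15433 in WT mt−. At lost places the median percentile was lower in dnmt1 than in WT in both strains, with intervals that did not overlap. At all places it was 59.4 in dnmt1 mt+ against 59.9 in WT mt+, and 58.0 in dnmt1 mt− against 57.3 in WT mt−. The intervals leave out variation between libraries, and a change between genotypes was not tested. The plot of H3K4me3 ranks gives the spread behind these medians.

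**Figure D5:**
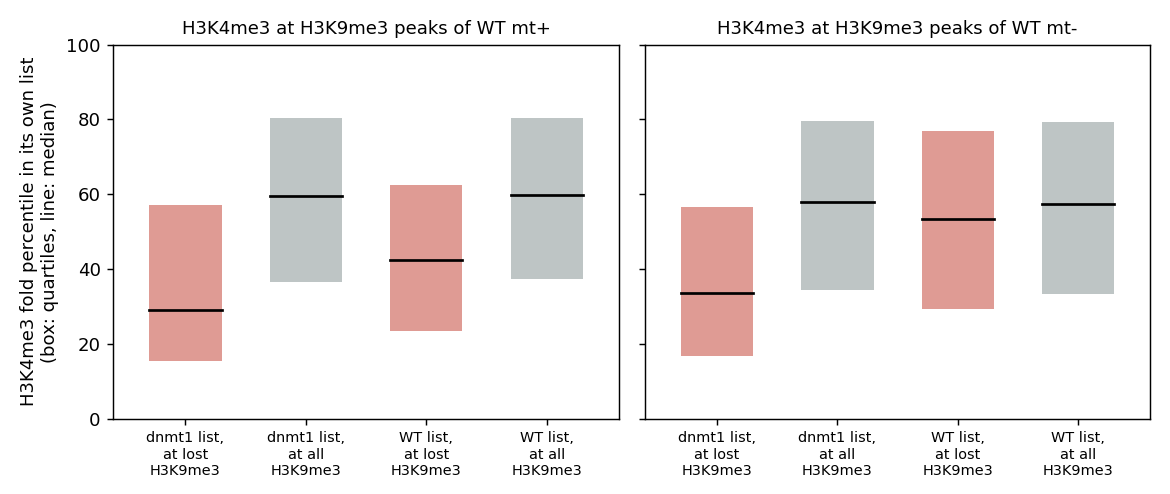
Percentile of the H3K4me3 fold within its own list, for H3K4me3 peaks that overlap H3K9me3 peaks lost in dnmt1 (red) and all H3K9me3 peaks (grey), in mt+ (left) and mt− (right); boxes span the quartiles and lines mark medians. In the dnmt1 lists the lost places have medians of 29.1 and 33.7, against 59.4 and 58.0 at all H3K9me3 peaks, and the boxes overlap.

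Few lost peaks lay away from H3K4me3. Lost peaks that met no H3K4me3 peak of either WT strain numbered 6 in mt+ and 4 in mt−, and none of the 10 met an H3K4me3 peak of its own dnmt1 strain. In mt+ they lay on chromosomes 6 (1783326 to 1783616), 9 (4229977 to 4230391), 12 (3039731 to 3039976), 13 (4893971 to 4894896 and 4895876 to 4896183) and 15 (5858055 to 5858345). Their folds spanned 1.59 to 2.53. In mt− they lay on chromosomes 2 (6941336 to 6941657), 13 (4894008 to 4894633), 15 (3254380 to 3254650) and 16 (752869 to 753272), with folds of 1.55 to 1.91. Within this group WT H3K9me1 of the same strain was found at 4 of the 6 mt+ peaks and at 3 of the 4 mt− peaks. Over all H3K9me3 peaks equally away from H3K4me3 it was found at 42 of 49 in mt+ (85.7%) and at 16 of 20 in mt− (80%), so the lost peaks did not stand above the others in this respect.

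The chromosome 13 place is the only one of the group that was lost in both strains. It measured 926 bp with a fold of 2.53 in WT mt+, and 626 bp with a fold of 1.76 in WT mt−. It overlapped H3K9me1 in dnmt1 and WT of both strains, and a dnmt1 H3K9me3 peak lay 8 bp from the mt+ peak and 45 bp from the mt− peak. With a gap of 200 bp allowed it would count as kept. A further lost mt+ peak on that chromosome began at 4895876, where the nearest dnmt1 H3K9me3 peak was 1913 bp away.

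Lost peaks on WT H3K4me3 without dnmt1 H3K4me3 of the strain over them were few. In mt+ they were a peak on chromosome 3 from 8884157 to 8884504, with an H3K9me3 fold of 2.72 on a WT H3K4me3 peak of fold 5.59 and 764 bp, and the peak on chromosome 2 that begins at 1181096, on a WT H3K4me3 peak of fold 1.92 and 303 bp. Both marks had been called there in WT mt+ and neither in dnmt1 mt+. H3K4me3 was called at both places in WT mt− as well and at neither in dnmt1 mt−. A dnmt1 H3K9me3 peak lay 178 bp from the chromosome 2 peak, which would count as kept with a gap of 200 bp allowed. The WT mt+ H3K4me3 fold at that peak was among the lowest, at the 0.302 percentile of its list. In mt− the highest fold, 3.11, was that of a peak on chromosome 9 from 3759732 to 3760186, on a WT H3K4me3 peak 1408 bp wide with a fold of 4.66. That H3K4me3 peak also held a kept H3K9me3 peak and had a dnmt1 counterpart that did not reach the lost one. A pair on chromosome 15, from 4422164 to 4422691 and from 4422951 to 4423232, shared a single WT H3K4me3 peak of 883 bp and fold 2.49, which was missing from dnmt1 mt− as a whole. The remaining mt− cases, on chromosome 15 from 47967 to 48426 and from 5564324 to 5564588, had H3K9me3 folds of 1.96 and 1.58. The WT H3K4me3 peak of the first had a dnmt1 mt− counterpart beside the lost peak and that of the second had none, while dnmt1 mt+ had H3K4me3 at both. For 4 of these 5 mt− peaks WT mt+ had no H3K4me3 over the place either, the peak at 5564324 being the exception. None of the 7 peaks met an H3K9me3 peak of the other WT strain.

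H3K9me1 was seldom found at lost peaks. In mt+, 3 lost peaks (1.18%, 0.402 to 3.41, against 0.349% of all) met an H3K9me1 peak of dnmt1, 4 (1.57%, 0.614 to 3.98, against 0.183%) of set3 and 7 (2.76%, 1.34 to 5.58, against 2.27%) of WT. In mt− it was 3 (0.75%, 0.255 to 2.18, against 0.145%), 4 (1.00%, 0.390 to 2.54, against 0.137%) and 10 (2.5%, 1.36 to 4.54, against 2.37%). The shares for WT H3K9me1 lay near those of all peaks, while the intervals for dnmt1 and set3 H3K9me1 lay above the values over all peaks in both strains, with 3 or 4 peaks behind each. In each strain the 3 peaks on dnmt1 H3K9me1 were all among those away from H3K4me3 described above. The chromosome 13 place is among the 3 in both strains, so the strains are not separate support. Of the 17 lost peaks on WT H3K9me1, chosen after their values were seen, only the chromosome 13 place and a place on chromosome 12, from 6658259 to 6658529 in mt+, occurred in both strains. H3K4me1 was met by 3 lost mt+ peaks in dnmt1 (1.18%, 0.402 to 3.41, against 0.0499% of all) and by 0 in WT (against 0.0% of all). In mt− it was met by 1 lost peak in dnmt1 (0.25%, against 0.0161%) and by 1 in WT (0.25%, against 0.0563%). The H3K4me1 lists differ widely in length, with 12718 peaks in dnmt1 mt+, 1104 in dnmt1 mt−, 2067 in WT mt+ and 5151 in WT mt−. No change between genotypes is read from these counts.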

How the data were processed

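ChIP-seq peak lists of H3K9me3, H3K4me3, H3K9me1 and H3K4me1 in dnmt1, set3 and WT were compared by position. The submitters' processing notes name MACS2 2.2.7.1, Bowtie2 2.4.2, Trim Galore 0.6.7, deepTools 3.5.1 and Picard, with settings and build not given in the sources used here. Per the deposited files, peaks were called on single libraries, and each has a fold over the local background (a linear ratio), a −log10 p and −log10 q-value, and a summit position. The lowest −log10 q of each deposited list is just above 2, a q-value of 0.01. The files give no read counts. Because MACS2 computes fold and p from pileup and background, both were recovered from the deposited fold and −log10 p. Pileups came out as whole fragments within 0.05 for 100% of the H3K9me3 summits of each list. A −log10 q limit as low as 2 lets weak peaks pass, and a weak peak can be missing from a list while its signal lies just under the limit.

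From these lists, overlaps of 1 bp or more were found with Python 3.11.15, numpy 2.4.6, pandas 2.3.3, scipy 1.17.1 and statsmodels 0.14.6, and tested on simulated data. Coordinates are those of the files, counted from 1; a sequence was taken to end at its farthest peak in any list. Shares have Wilson 95% intervals and medians have 95% intervals from order statistics. There was 1 library per mark, genotype and strain, so no replicate error exists and no test between genotypes was run. The members and lists were chosen with earlier results of these data known. The places named are the 10 shared places of highest mt+ fold, the 5 widest and 5 highest peaks of each strain, all lost peaks away from H3K4me3 of both WT strains, up to 10 per strain without dnmt1 H3K4me3, and the 3 nearest to the rule's limit on either side. Alternatives were a −log10 q of 5 in all lists or in the WT H3K9me3 list, 50% cover, a gap of 200 bp and the dnmt1 list of the same strain alone. After seeing the data, the dnmt1 list of the other strain alone and a minimum width were added. Genes were not assigned, since the build of the files is not given.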

Additional observations from a re-analysis of the deposited data

Results flagged for a closer look

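The H3K4me3 peaks under lost H3K9me3 peaks moved in opposite directions in the 2 strains. Their median log2 ratio of width, dnmt1 over WT, was 0.071 in mt+ (0.053 to 0.084, n = 243 places) and −0.10 in mt− (−0.12 to −0.086, n = 391 places). Over all H3K9me3 peaks the same ratio was 0.048 in mt+ and −0.042 in mt−, so the signs were those of the lists as a whole. Each value compares 1 dnmt1 library with 1 WT library, and the difference between the strains was not tested.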

How the results depend on the processing

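For each strain 6 results were recomputed under 7 settings: the number and median width of lost peaks, and the shares in an H3K9me3 peak of the other WT strain, in WT H3K4me3, in dnmt1 H3K4me3, and with another H3K9me3 peak in their WT H3K4me3 peak. Of the 84 values, 65 stayed within 1.5 times the reported count or within the interval of the reported median or share, and 19 did not. Allowing a gap of 200 bp and asking for 50% cover moved none of them, with 246 and 266 lost peaks in mt+ and 394 and 430 in mt−. With the dnmt1 list of the same strain alone there were 611 lost peaks in mt+ and 740 in mt−, with median widths of 326 and 346.5 bp, and 63.8% and 45.1% met a peak of the other WT strain. With the dnmt1 list of the other strain alone, added after seeing the data, the values were 539 and 847 peaks, 321 and 344 bp, and 62.7% and 45.6%. Both settings ask for absence from 1 list in place of 2, and so count more peaks by construction. Keeping only WT peaks of at least 265 bp, the shortest width in dnmt1 mt−, also added after seeing the data, left 203 and 352 lost peaks with median widths of 317 and 336 bp. With a −log10 q of 5 or more in all lists, 286 and 453 were lost; the share in WT H3K4me3 was 98.6% in mt+, the median width was 340 bp in mt− and the share in dnmt1 H3K4me3 was 99.1% in mt−. With that limit for WT H3K9me3 peaks alone, 190 and 322 were lost, and the share in WT H3K4me3 was 98.4% in mt+ and 99.7% in mt−; the cause of these shifts was not tested. No paired analysis was possible because each mark, genotype and strain has 1 library. For the same reason library, genotype and depth cannot be told apart, and a peak missing from a list is not shown to lack the mark.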
